A study of Mus musculus with 6 samples.

Results

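The blood side of the glomerular filter was followed through 35 genes of endothelial identity in RNA of isolated mouse glomeruli. The genes were a list of symbols chosen, like the marker lists used below, with earlier results of these data known. They were matched by NCBI Gene identifier to the table of normalised counts. All 35 were among its 27179 features and all 35 met the minimum for testing, an average of 10 normalised counts across the 6 libraries, as did 13946 genes in total. The list does not mark a single cell type sharply, since Pecam1, Icam2, Cd34, Ets1, Lmo2 and Tal1 are also known from blood cells and Fabp4 and Lpl from adipocytes.

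There were 3 libraries of each genotype, all from male mice of strain C57BL/6 mixed at 9 weeks of age, and the protocol shared by both groups describes the animals as mildly proteinuric. The KO mice (KO-1 to KO-3) were Parva-fl/fl*hNPHS2Cre: both copies of Parva, the gene of the actin-binding adhesion protein alpha-parvin, were floxed, and Cre was driven by the human promoter of podocin, which is active in podocytes. The WT mice (WT-1 to WT-3) were Parva-fl/fl without Cre, so that the floxed alleles are shared by both groups and Cre alone separates them. Endothelial cells of the KO mice carry the floxed gene but are not a target of this Cre, and the glomeruli were isolated by perfusion with magnetic beads, which lodge in their capillaries.

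Glomerular capillaries are lined by a thin endothelium perforated by open pores, which faces the podocytes across a shared basement membrane and depends on VEGF that podocytes release. In adult mice most of these pores lack the diaphragm protein PLVAP that closes them in other fenestrated beds. Endothelial identity is held by transcription factors of the ETS, SOXF and GATA families, which act on genes of cell junctions, surface glycoproteins and receptors.

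Parva checked the labels. It stood at 6585, 7520 and 7890 normalised counts in the WT libraries and at 2288, 2338 and 1942 in the KO libraries (limma adjusted p = 0.0106, log2 fold change -1.74 with SE 0.12). Whole reads recovered from the table numbered 11886828 to 20552984 per library.

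Every one of the 35 genes had a lower mean in KO than in WT, and 25 of them fell past the threshold, an adjusted p of 0.05 in limma on log2(normalised count + 1). None rose in limma, edgeR or DESeq2, and 0 were higher at an unadjusted p under 0.05. Over all 13946 genes, 8.58% were called lower and 13.5% higher, and 50.6% had a lower mean in KO. The median log2 fold change of the 35 genes was -0.67, against -0.006 over all genes tested, and the changes of single genes ran from -0.91 to -0.11. In 31 of the 35 genes all 3 KO libraries lay below all 3 WT libraries, a pattern present in 21.9% of the genes tested, while 23.2% had all KO libraries above all WT libraries and none of the 35 did. The median decrease of the mean was 37% and no gene fell 2-fold or more. Markers of another cell type moved in the same libraries: all 17 proximal tubule markers rose, with a median log2 fold change of 1.55. With their mean log2 level as a covariate, the median of the 35 genes was -0.31 and limma called 0 of them, with 1 at an unadjusted p under 0.05. Of all 13946 genes, that fit called 0 lower and held 193 as lower at an unadjusted p under 0.05. Without the covariate, 2482 of all genes were lower at that unadjusted p. Of 8 mesangial and 14 podocyte markers, 7 and 7 fell, with medians of -0.68 and -0.60. In libraries of whole glomeruli, fewer endothelial cells, less RNA per endothelial cell and a larger share of tubule RNA cannot be told apart.

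The number of genes called depended on which libraries were kept, among the 35 genes and over all genes. Leaving out WT-1 gave 28 of 35, with 12.1% of all genes called lower, and leaving out KO-1 gave 16 of 35, with 5.61%. With any of the other 4 libraries left out limma called 0 of the 35. The median log2 fold change of the 35 genes in these fits was -0.60 (WT-2 left out), -0.62 (WT-3), -0.56 (KO-2) and -0.73 (KO-3). All genes called lower were then 0% with WT-2 or WT-3 left out, 0.0143% with KO-2 left out and 0.0072% with KO-3 left out. At an unadjusted p under 0.05 these 4 fits held 28 (WT-2 left out), 28 (WT-3), 26 (KO-2) and 32 (KO-3) of the 35 genes, all lower in KO. At this threshold all genes lower numbered 1581 of 13968, 1670 of 13925, 1722 of 13959 and 2143 of 13887 in the same order. edgeR called 0 of the 35 with the same 4 libraries left out, with 28, 28, 27 and 32 at an unadjusted p under 0.05. All genes lower at that p were 1618, 1705, 1688 and 2155 of 13946. edgeR called 28 (12.1% of all genes) when WT-1 was left out and 9 (3.61%) when KO-1 was. With all 6 libraries, edgeR called 25 (8.25% of all genes) and DESeq2 27 (10.5%). In limma the count was 25 with TMM scaling (9.02%), pseudocounts of 0.5 (8.58%) and 5 (8.69%), a robust prior (8.63%) and minimum means of 1 (6.31%) and 50 (10.3%). It was 26 with upper quartile scaling (11.4%) and 24 with no filter (4.99%). It was 0 without the variance trend, where 0% of all genes were called lower. At an unadjusted p under 0.05 that fit held 32 of the 35 and 2336 of all 13946 genes as lower.

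**Figure D1:**
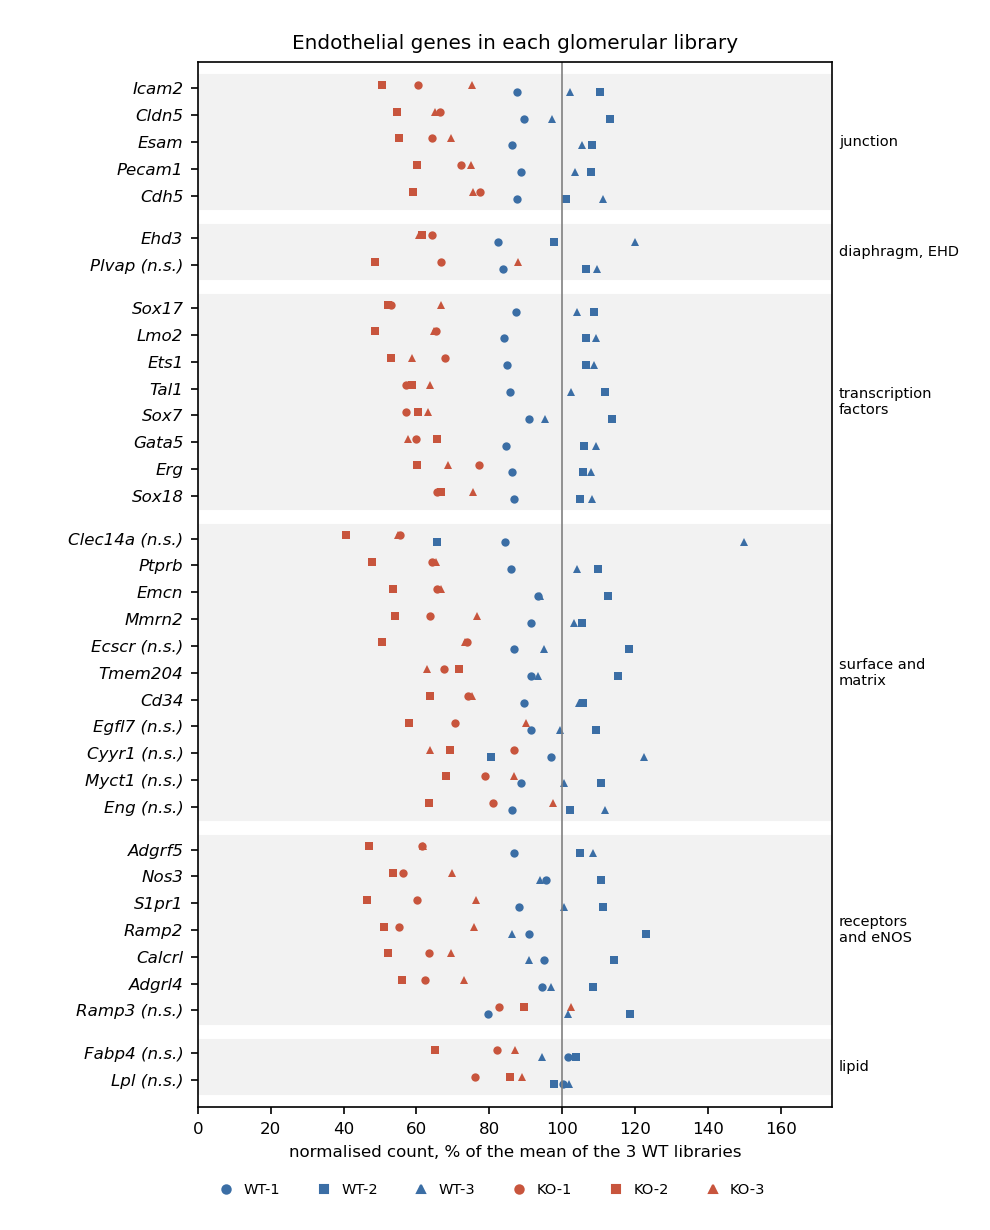
Normalised count of each of the 35 genes in each of the 6 libraries, as a percentage of the mean of the 3 WT libraries (horizontal axis), grouped by role. Blue points are WT and red points are KO libraries, marker shapes give the replicate, and n.s. marks the 10 genes that did not pass in limma. The red points lie left of all the blue points in 31 of 35 genes.

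The 5 junction genes all fell. Pecam1, an adhesion receptor between endothelial cells, stood at 5255, 6396 and 6144 normalised counts in WT and at 4291, 3560 and 4444 in KO. Cdh5, the cadherin of endothelial adherens junctions, stood at 2977, 3437 and 3785 in WT and at 2633, 2003 and 2571 in KO. The KO libraries of both genes lay below the WT libraries without overlap, and these were the smallest changes of the group, with log2 fold changes of -0.53 (limma adjusted p = 0.0332, SE 0.13) and -0.50 (limma adjusted p = 0.0443, SE 0.14). Cldn5, the tight junction claudin of endothelium, had 4546, 5749 and 4944 in WT and 3375, 2770 and 3301 in KO. Esam, an adhesion molecule of tight junctions, had 2062, 2587 and 2516 in WT and 1534, 1321 and 1658 in KO. Icam2, a ligand of leukocyte integrins at endothelial contacts, had 1744, 2194 and 2030 in WT and 1201, 1003 and 1496 in KO. In these 3 genes too the groups did not overlap, KO-2 was the lowest library, and the mean was lower by 38% (Cldn5), 37% (Esam) and 38% (Icam2), with log2 fold changes of -0.69, -0.67 and -0.70.

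Of the genes tied to fenestrae and their membranes, Ehd3 fell and Plvap did not pass. Ehd3, a membrane-shaping ATPase that in the kidney marks the glomerular endothelium, stood at 12661, 15037 and 18450 in WT and at 9871, 9444 and 9348 in KO. The KO libraries were nearly level while the WT libraries spread over a wider range, and the groups did not overlap (limma adjusted p = 0.0336, log2 fold change -0.67 with SE 0.16). Plvap, the diaphragm protein, stood at 1442, 1833 and 1884 in WT and at 1149, 838 and 1512 in KO. KO-3 lay above WT-1, so the groups overlapped (limma adjusted p = 0.0866, log2 fold change -0.59 with SE 0.22). The log2 ratio of Plvap to Ehd3 in the same library averaged -3.15 ± 0.13 in WT against -3.07 ± 0.43 in KO (SD, n = 3), with overlapping groups. For Plvap and Ehd3 alike the change was near the median of the 35 genes, and the wider error of Plvap went with its spread between KO libraries.

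All 8 transcription factor genes fell. They are the SOXF factors Sox7, Sox17 and Sox18, the zinc finger factor Gata5, the ETS factors Erg and Ets1, and the blood and endothelial regulators Tal1 and Lmo2, whose products work in 1 complex. Sox17 had the largest decrease of the group, from 1018, 1267 and 1212 in WT to 617, 608 and 777 in KO (limma adjusted p = 0.0286, log2 fold change -0.81 with SE 0.13). Sox7 stood at 318, 397 and 333 in WT and at 200, 211 and 221 in KO. Gata5, which in the kidney is known from glomerular endothelial cells, stood at 792, 993 and 1025 in WT and at 560, 614 and 541 in KO. The KO libraries of Sox7 and Gata5 lay within a narrow band under the lowest WT library, with log2 fold changes of -0.72 and -0.70. Ets1 stood at 4048, 5085 and 5183 in WT and at 3235, 2525 and 2811 in KO, a log2 fold change of -0.74. Erg, a factor needed for junction genes such as Cdh5, stood at 642, 786 and 803 in WT and at 574, 447 and 510 in KO, and had the weakest call of the group (limma adjusted p = 0.0335, log2 fold change -0.54 with SE 0.13). Tal1 and Lmo2 changed by -0.73 and -0.75 and Sox18 by -0.52. The median of the 8 factors was -0.72 on the log2 scale, against -0.67 for the 5 junction genes.

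The log2 ratios among the SOXF genes separated the genotypes in 1 of 3 pairs. The ratio of Sox17 to Sox18 was -0.44, -0.40 and -0.51 in WT and -0.76, -0.81 and -0.63 in KO, so that every KO library lay below every WT library. The ratio of Sox7 to Sox17 was -1.67, -1.67 and -1.86 in WT and -1.62, -1.52 and -1.81 in KO, with overlap. The ratio of Sox7 to Sox18 was -2.12, -2.08 and -2.37 in WT and -2.38, -2.33 and -2.44 in KO, also with overlap. These ratios do not depend on the scaling of the libraries. The 9 gene pairs computed, here and for other genes, were chosen after their values were seen and carry no test. Of the exon bases of Sox17, 16.8% lie over a gene on the opposite strand, and the strand setting of the counting is not given in the sources used here.

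Among the 11 surface and matrix genes, 5 fell and 6 did not pass. Emcn, a sialomucin of the endothelial surface, stood at 11488, 13857 and 11560 in WT and at 8089, 6590 and 8196 in KO. Ptprb, the phosphatase VE-PTP that restrains the Tie2 receptor, stood at 4977, 6354 and 6012 in WT and at 3722, 2757 and 3775 in KO. Both genes showed a clear gap between the groups, with log2 fold changes of -0.69 (limma adjusted p = 0.0289, SE 0.15) and -0.76 (limma adjusted p = 0.0286, SE 0.16). Tmem204, a membrane protein of endothelial cells, stood at 2685, 3391 and 2744 in WT and at 1989, 2107 and 1850 in KO. Mmrn2, a matrix glycoprotein deposited around vessels, stood at 2227, 2566 and 2512 in WT and at 1553, 1319 and 1863 in KO. These genes, with log2 fold changes of -0.56 and -0.64, also had no overlap, and Cd34, a sialomucin, fell by 0.49 on the log2 scale.

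Eng, the TGF-beta family coreceptor endoglin, was among the least changed genes. It stood at 9511, 11282 and 12330 in WT and at 8957, 7019 and 10760 in KO. KO-3 lay above WT-1, and the log2 fold change of -0.32 had a 95% interval of -0.76 to 0.12 (limma adjusted p = 0.238). Clec14a, the receptor to which the product of Mmrn2 binds, had the lowest estimate of all 35 genes, -0.91, with an SE of 0.29 and a limma adjusted p of 0.0607. Its values, shown because of that spread, were 1584, 1235 and 2817 in WT and 1042, 763 and 1034 in KO. The KO libraries lay below all WT libraries, and WT-3 held more than any other library. The other genes that did not pass were Ecscr, a regulator of endothelial migration (-0.61, limma adjusted p = 0.0547), Egfl7, a secreted vascular factor (-0.48, limma adjusted p = 0.0775), Myct1 (-0.36, limma adjusted p = 0.0769) and Cyyr1 (-0.44, limma adjusted p = 0.14). Ecscr passed in DESeq2, as did Clec14a.

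The receptor genes and Nos3 fell except Ramp3. Nos3, the endothelial nitric oxide synthase, stood at 491, 569 and 483 in WT and at 290, 276 and 359 in KO (limma adjusted p = 0.0286, log2 fold change -0.74 with SE 0.13). Of its exon bases 32.3% lie over genes on the opposite strand, among them Atg9b. Adgrf5, an adhesion G protein-coupled receptor, stood at 5095, 6156 and 6368 in WT and at 3607, 2751 and 3633 in KO. Its decrease of 43.3% (log2 fold change -0.82) was the largest among the 25 genes that passed, and the groups were far apart. Adgrl4, of the same receptor class, stood at 2268, 2603 and 2324 in WT and at 1497, 1343 and 1753 in KO (log2 fold change -0.65). S1pr1, the receptor through which sphingosine-1-phosphate tightens the endothelial barrier, changed by -0.73 (limma adjusted p = 0.0348).

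Calcrl encodes the receptor that binds adrenomedullin when paired with an accessory protein from Ramp2 or Ramp3. Calcrl stood at 2734, 3286 and 2617 in WT and at 1824, 1501 and 2003 in KO, with no overlap (limma adjusted p = 0.0286, log2 fold change -0.70 with SE 0.14). Ramp2, given beside it as its partner, stood at 1372, 1856 and 1300 in WT and at 834, 769 and 1146 in KO (limma adjusted p = 0.0381, log2 fold change -0.72 with SE 0.19). Of the exon bases of Ramp2 33.4% are shared with the annotated exons of Vps25 on the same strand, and how reads there were assigned is not given in the sources used here. Ramp3 stood at 427, 636 and 544 in WT and at 443, 480 and 548 in KO. Its groups overlapped throughout, and its log2 fold change of -0.11 had a 95% interval of -0.49 to 0.26 (limma adjusted p = 0.626). The log2 ratio of Ramp3 to Ramp2 was -1.68, -1.54 and -1.25 in WT and -0.91, -0.68 and -1.06 in KO. The ratio of Ramp3 to Calcrl was -2.68, -2.37 and -2.26 in WT and -2.04, -1.64 and -1.87 in KO. In both ratios every KO library lay above every WT library. The ratio of Ramp2 to Calcrl averaged -0.94 ± 0.10 in WT against -0.97 ± 0.16 in KO (SD, n = 3), with overlapping groups.

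Neither gene of lipid handling passed. Lpl, the lipoprotein lipase, which acts on the capillary wall, stood at 19792, 19257 and 20109 in WT and at 14987, 16879 and 17549 in KO. The WT libraries were nearly level and all lay above the KO libraries, yet the log2 fold change of -0.26 did not pass (95% interval -0.60 to 0.08, limma adjusted p = 0.216). Fabp4, a fatty acid carrier of capillary endothelium and fat, stood at 682, 696 and 633 in WT and at 550, 437 and 583 in KO, again without overlap (limma adjusted p = 0.0732, log2 fold change -0.37 with SE 0.13). The adipocyte genes Adipoq, Plin1, Cidec and Lep summed to at most 2.27 normalised counts in any library, and Lep was at 0 in all 6.

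**Figure D2:**
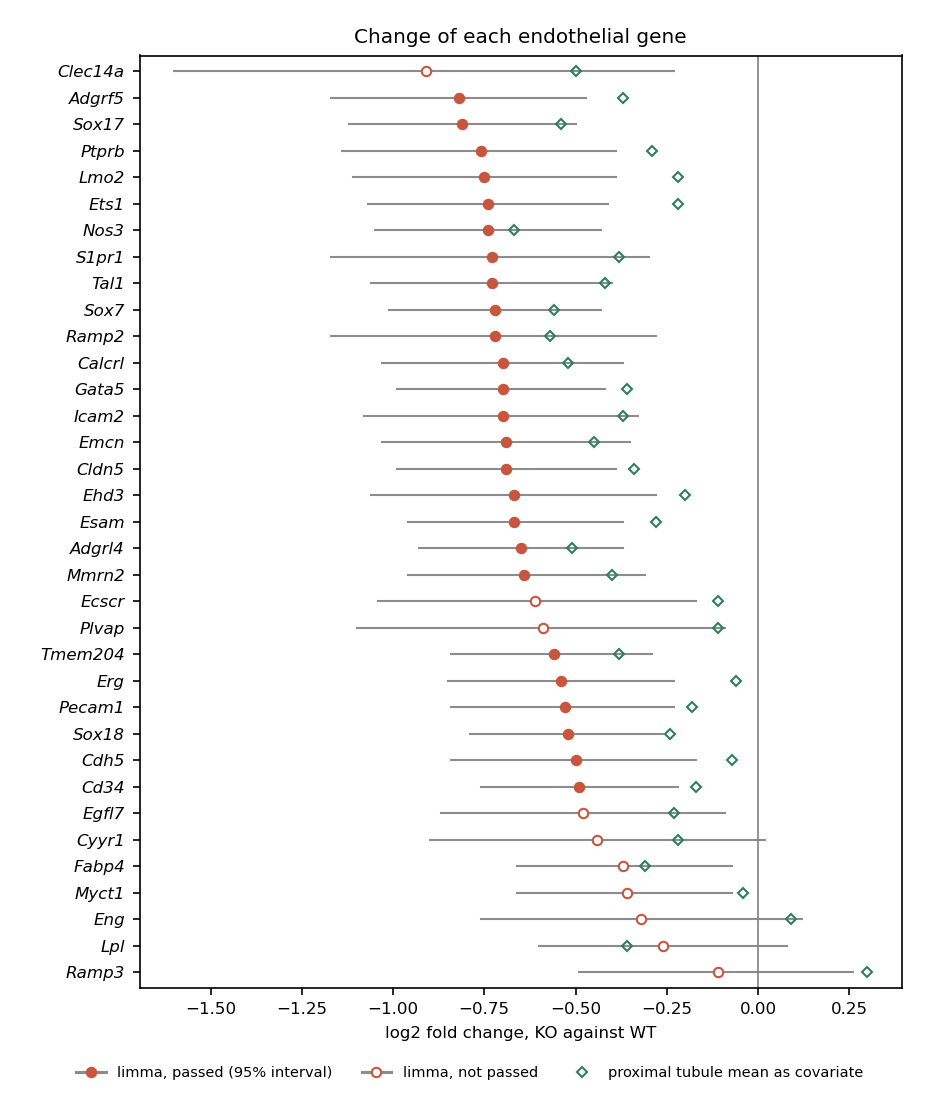
Log2 fold change of KO against WT for each of the 35 genes, with its 95% interval from limma (circles, filled where the gene passed) and the estimate with the mean level of proximal tubule markers as a covariate (diamonds). All circles lie left of 0, from Clec14a at -0.91 to Ramp3 at -0.11, and the diamonds of Eng and Ramp3 lie right of 0.

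Each gene was set against the mean log2 level of the 35 genes in the same library, a mean that includes the gene itself. The log2 fold changes of the 35 genes had an SD of 0.17, so most were bound to change much as that mean did. No other list was treated in this way. The difference between KO and WT in the level relative to that mean was at most 0.2 in size for 28 of the 35. It was 0.49 for Ramp3, at -2.06, -1.75 and -1.94 in WT and -1.60, -1.27 and -1.40 in KO. It was 0.34 for Lpl, 0.28 for Eng, and -0.31 for Clec14a, which alone spread over more than 1 log2 unit among the WT libraries. Per kilobase of annotated exon, levels in WT ran from 24.2 normalised counts for Cyyr1 to 3587 for Cldn5. Eng (2727), Ehd3 (2346), Emcn (2274) and Lpl (1882) followed Cldn5 in WT normalised counts per kilobase. The transcription factors lay lower on the same scale, from 55.2 for Tal1 to 985 for Sox18, with Ets1 at 563. The genes lie on 14 chromosomes, with 6 of them on chromosome 2, so no single segment holds the list.

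The promoters of a few of the genes are shown. The table of RefSeq promoters (build GRCm38.p6, the same assembly as mm10) held 22 windows for 16 of the 35 genes. In the 250 bases upstream of the start, 12 short motifs were searched, all chosen after the expression values were seen, and the shares carry no test. The ETS core AGGAAG, on either strand, was present in 11 of 22 windows (50%), against 29.5% of all 32851 windows, and CAGGAA, which also holds the GGAA of ETS sites, in 50% against 25.7%. The longer form ACAGGAA was present in 22.7% against 7.2%. Other ETS forms were not more frequent, with CGGAAG in 4.55% against 13.6% and CCGGAAG in 4.55% against 6.91%. The SOX core AACAAT was present in 13.6% of the 22 windows against 9.42% of all windows. ACAAAG, another SOX form, was in 9.09% against 16.5%. The GATA core AGATAA was in 13.6% against 9.99%. The E-box CANNTG was in 45.5% against 66.2%, and its form CAGCTG in 4.55% against 13%. CACCC, a KLF core, was in 54.5% against 52%, and the GC box GGGCGG in 31.8% against 32.7%. Matches on both strands were counted, matches of different motifs may overlap, and several windows of a gene share its sequence. The windows below, read 5′ to 3′ on the strand of the gene, carry AGGAAG or its complement CTTCCT in capitals. Each was shortened where needed to end before the RefSeq gene start and the first GENCODE exon, which left 234 bases for Emcn (chr3:137340828-137341061, plus strand), 223 for Ramp3 (chr11:6658283-6658505, plus strand) and 250 for Cldn5 (chr16:18776597-18776846, plus strand). The windows counted above were not shortened, so some of them reach into a longer transcript of their gene. The 3 genes, picked with their values known, set a pair of genes that fell beside the least changed gene.
Emcn: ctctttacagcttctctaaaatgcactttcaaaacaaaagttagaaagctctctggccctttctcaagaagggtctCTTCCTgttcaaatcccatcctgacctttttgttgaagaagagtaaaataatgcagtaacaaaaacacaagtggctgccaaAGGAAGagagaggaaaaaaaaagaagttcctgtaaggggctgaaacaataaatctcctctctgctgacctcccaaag
Ramp3: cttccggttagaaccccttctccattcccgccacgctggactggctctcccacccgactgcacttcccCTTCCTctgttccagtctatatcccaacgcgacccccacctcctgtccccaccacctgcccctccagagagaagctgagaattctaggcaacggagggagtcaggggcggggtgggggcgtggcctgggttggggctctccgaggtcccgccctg
Cldn5: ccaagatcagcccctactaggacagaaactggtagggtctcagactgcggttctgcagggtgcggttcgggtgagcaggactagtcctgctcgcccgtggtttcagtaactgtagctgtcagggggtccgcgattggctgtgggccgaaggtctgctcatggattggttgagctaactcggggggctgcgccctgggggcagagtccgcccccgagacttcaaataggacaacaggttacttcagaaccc
Emcn held 2 matches to AGGAAG or its complement, Ramp3 held 1 and Cldn5 held 0. Other ETS forms were not marked or counted in these windows, though those of Emcn and Ramp3 hold some. The AGGAAG core was present in the window of Ramp3, whose level differed least between genotypes, and absent from that of Cldn5, which fell. A link between motifs and changes was not tested.

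Endothelial genes outside the list were lower as well. Of 18 other genes of endothelial cells, 16 fell, none rose and 2 did not pass, with a median log2 fold change of -0.71. Notch4, a Notch receptor of endothelium, stood at 1222, 1418 and 1285 in WT and at 758, 743 and 846 in KO (log2 fold change -0.74). Klf2, a transcription factor induced by blood flow, stood at 2740, 3435 and 2682 in WT and at 1543, 1717 and 1532 in KO (log2 fold change -0.88). Flt1, a VEGF receptor, changed by -0.70, and the groups of all 3 genes were apart. Cd93 and Rgcc did not pass. Of 8 arterial genes, 6 fell and none rose, with a median of -0.78. Gja5, the arterial connexin 40, which renin cells also carry, averaged 3286 ± 335 normalised counts in WT against 1547 ± 398 in KO (SD, n = 3), and fell by more than any of the 35 genes (limma adjusted p = 0.0286, log2 fold change -1.12 with SE 0.19). Dll4, a Notch ligand, changed by -0.83 and Gja4, connexin 37, by -0.74.

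Markers of other vessel beds ranged from abundant to absent. In the list of 8 venous and peritubular genes, Ephb4 and Nr2f2 fell (-0.48 and -0.35), Aplnr rose, and Cd36 and Igfbp3, the others of the 5 genes tested, did not pass (0.40 and -0.57). Nr2f2 averaged 2539 ± 230 normalised counts in WT against 1990 ± 31.6 in KO, and Ephb4 2079 ± 146 against 1490 ± 118 (SD, n = 3). Aplnr, the apelin receptor, was low in every library, at 8.69, 13.9 and 11.5 in WT and at 44.3, 20.6 and 40.8 in KO (limma adjusted p = 0.0364, log2 fold change 1.5 with SE 0.38). Vwf stood at 13 to 14.8 in WT and 1.08 to 11.3 in KO, Selp was at 0 in all WT libraries and Ackr1 at 0 in all 6. Of the 6 lymphatic genes only Flt4, which blood capillaries with pores also express, was tested, and it changed by -0.48 (limma adjusted p = 0.0451). Lyve1 was at 29.6 or less in each library, and Ccl21a at 0 in all 6.

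The adhesion molecules of activated endothelium were not lower. Sele, E-selectin, stood at 20.6, 11.9 and 18.9 in WT and at 62.9, 24.9 and 51.0 in KO, all KO libraries above all WT libraries, without passing (limma adjusted p = 0.0563, log2 fold change 1.32 with SE 0.41). Vcam1 stood at 299, 232 and 148 in WT and at 392, 211 and 933 in KO, and Icam1 at 196, 217 and 198 in WT and at 265, 179 and 501 in KO. Both were highest in KO-3 and neither passed (limma adjusted p = 0.2 and 0.303). Of the 2 erythroid genes tested, Hbb-bs fell (-0.84, limma adjusted p = 0.0486) and Hba-a1 did not pass (-0.89, limma adjusted p = 0.0798). Itga2b, the only platelet gene tested, did not pass (0.18, limma adjusted p = 0.657). The 10 leukocyte markers tested had limma adjusted p values from 0.152 (Csf1r) to 0.726 (Cd68). The summed level of all 11 leukocyte markers listed was 800 to 1502 in WT and 859 to 2109 in KO, highest in KO-3. The part of these cells in the values of KO-3 was not tested.

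The other cells of the glomerulus and the adjoining tubules moved in the same libraries. Of 8 mesangial markers, 7 fell, with a median log2 fold change of -0.68, and their summed level was 31935 to 40903 in WT and 20941 to 25118 in KO. Of 14 podocyte markers, 7 fell, with a median of -0.60, and their summed level was 232176 to 291204 in WT and 152427 to 219363 in KO. The mean log2 level of the 35 genes less that of the mesangial markers averaged -1.04 ± 0.07 in WT against -0.94 ± 0.06 in KO. Less that of the podocyte markers it averaged -2.15 ± 0.04 in WT against -2.20 ± 0.28 in KO (SD, n = 3). The groups overlapped in both differences, which were not tested. The summed level of the proximal tubule markers was 55269 to 121764 in WT and 166783 to 241313 in KO, and none was at 0. The level of tubule markers and the genotype cannot be told apart by the design.

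The order of the libraries was shared in part. WT-1 held the highest level of the WT libraries for 17 of 17 proximal tubule markers, and the lowest for 28 of the 35 endothelial genes. KO-2, with the highest summed level of tubule markers, was the lowest KO library for 26 of the 35. How many of all genes tested were lowest in WT-1 or KO-2 was not computed. KO-3 had a higher mean log2 level of the 35 genes than KO-1 (10.5 against 10.39). Its mean log2 level of tubule markers was higher too (13.2 against 12.73). Among KO libraries, the mean log2 level of mesangial markers was lowest in KO-2 (11.17) and that of podocyte markers in KO-3 (12.38). With the mean log2 level of the tubule markers as a covariate, 33 of the 35 genes had a negative estimate. How many of all genes had a negative estimate was not counted. The median estimate was -0.31 for the 35 genes and -0.012 over all genes tested. The gene with an unadjusted p under 0.05 in that fit was Nos3 (-0.67, SE 0.27). Ramp3 and Eng were at 0.30 and 0.09. Over all genes this fit called 0 lower and 0 higher, with 384 at an unadjusted p under 0.05. With this covariate the mesangial and podocyte markers had medians of -0.27 and -0.12.

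**Figure D3:**
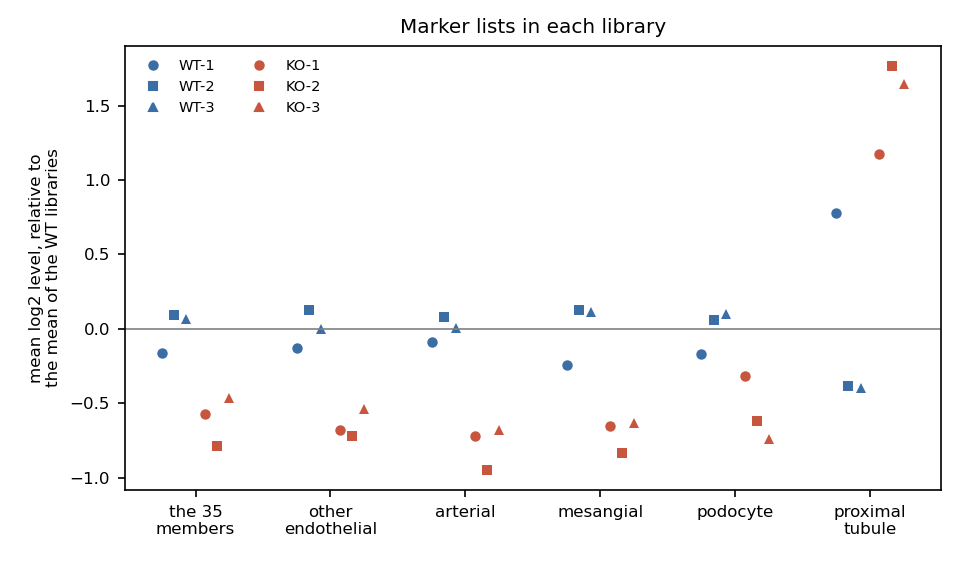
Mean log2 level of marker lists in each library, relative to the mean of the 3 WT libraries (vertical axis). The endothelial, mesangial and podocyte lists lie below 0 in all 3 KO libraries, and the proximal tubule list lies highest in KO-2 and, among WT, in WT-1.

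**Figure D4:**
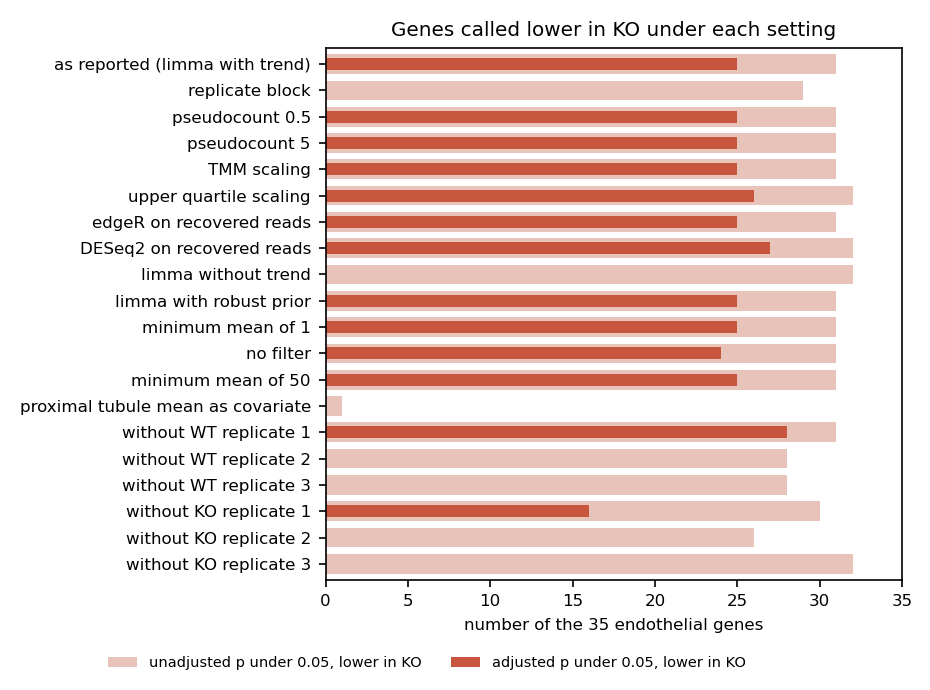
Number of the 35 genes lower in KO at an adjusted p under 0.05 (dark bars) and at an unadjusted p under 0.05 (pale bars) under each setting of the analysis. The dark bars range from 0 to 28, and the pale bars from 1, with the proximal tubule covariate, to 32.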

How the data were processed

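RNA of isolated glomeruli was measured in 3 KO and 3 WT mice, grouped and numbered by the sample titles. The deposited table holds normalised counts (a signal). Its columns are featureCounts output per the file headers, and the values show that the authors scaled each library by 1 factor. The submitters' processing notes name bcl2fastq 2.19, cutadapt 1.16.5, HISAT2 2.1, featureCounts 1.6.4, DESeq2 2.11.40.6 and mm10. Strand setting, annotation release and the handling of multiply placed reads: not given in the sources used here. A directional library kit was used, per the labels' protocols.

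Dividing each library by its smallest step returned whole reads for 100% of values (tolerance 0.01). The library sizes, 11886828 to 20552984 reads, carry no molecular identifiers, and precision was judged from the spread between mice. The 25275 identifiers with a RefSeq entry of GRCm38.p6 were named.

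Genes with a mean of at least 10 were tested with limma 3.58.1 in R 4.3.3 (variance trend, log2(normalised count + 1), genotype as the only term, two-sided, Benjamini-Hochberg over all 13946 genes, threshold 0.05). Fold changes on this scale understate the change of low genes. The settings varied were blocking on replicate number, the pseudocount (0.5 or 5), the scaling (TMM or upper quartile), the tool (edgeR 4.0.16 or DESeq2 1.42.0 on recovered reads), no trend, a robust prior, minimum means of 1 and 50 or no filter, the proximal tubule mean as a covariate, and leaving out each library. edgeR without each library was added after seeing the data. The fits were tested on simulated data.

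The members, marker lists and covariate were chosen with earlier results of these data known. Values in every library are given for the 4 members per role with the smallest p and the 1 with the largest. Up to 3 genes of each other endothelial list are named by p. Ramp2, Clec14a, the gene pairs and the motifs were added after their values were seen. So were Cd93, Rgcc, Cd36, Igfbp3, the erythroid and platelet genes, and genes at or near 0. Exon lengths and shared exon bases are from GENCODE M21, and 10 of the 35 genes share exon bases with another gene.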

Additional observations from a re-analysis of the deposited data

How the results depend on the processing

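The count of 25 lower genes among the 35 was 24 to 27 in limma with other pseudocounts, scalings, filters or a robust prior, in edgeR (25) and in DESeq2 (27). Dropping the trend from limma left 0 of them, although 32 had an unadjusted p under 0.05, and the tubule covariate left 0, with 1. Of all 13946 genes, 2336 were lower at that unadjusted p without the trend and 193 with the covariate. Leaving out 1 library gave 0 to 28 in limma and 0 to 28 in edgeR, with 9 in edgeR without KO-1, where edgeR called 504 of all genes lower and 682 higher. No member was called higher in any of these fits. Over all genes, the 1196 lower and 1889 higher became 0 and 1 without the trend and 0 and 0 with the covariate. Leaving out 1 library gave 0 to 1695 lower and 0 to 2600 higher in limma, and 0 to 1687 lower and 0 to 2620 higher in edgeR. Ramp3 lay between -0.27 (without WT-1) and 0.02 when 1 library was left out of limma. It changed sign with the covariate (0.30), without WT-2 (0.02) and in edgeR without WT-2 (0.01), and Eng with the covariate (0.09). The cause was not tested. Upper quartile scaling called 1596 genes lower and 1739 higher.

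With a replicate block limma called 0 of the 35, with 29 at an unadjusted p under 0.05, and over all genes 0 lower and 0 higher. Of all 13946 genes, 1702 were lower at that unadjusted p in the block fit. The values gave no sign of pairing by number. Same-numbered libraries had correlations of their deviations of -0.226, -0.191 and -0.013, and 0 of 6 libraries lay closest to its own number. Groups of 3 mice cannot settle whether the samples were paired. The limit set by depth was not tested separately from that set by the 3 mice per group.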
